A study of Mus musculus with 4 samples.

Results

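The 33 cell cycle genes described here were found by symbol among the 32285 genes counted in single cells of the mouse small-intestinal epithelial layer. They comprise 2 G1 cyclins (Ccnd1 and Ccne1), 13 genes of DNA replication and its nucleotide supply (Mcm2 to Mcm7, Pcna, Pclaf, Rrm1, Rrm2, Tyms, Hells and Dut) and 18 genes of the G2 phase and mitosis (Mki67, Top2a, Cdk1, Ccnb1, Ccnb2, Ccna2, Birc5, Ube2c, Cdc20, Cdca3, Cdca8, Cdkn3, Nusap1, Cenpf, Aurka, Aurkb, Plk1 and Bub1). The study asked what indolepropionic acid (IPA), which gut bacteria make from tryptophan, does in intestinal homeostasis. Its 4 samples came from male C57BL/6J mice, and every diet was high in fat with l-NAME, which blocks nitric oxide synthases. The 2 control samples came from mice on that diet alone, and the 2 IPA samples from mice whose diet also held 562.5 mg IPA per kg. Feeding lasted 7 weeks and started at an age of 8 weeks, so the mice were 15 weeks old at dissection. Each sample was a pool of 2 mice, and the epithelial layer was taken from jejunum and ileum. Cells were sorted for exclusion of DAPI, a sign of viability, with no sort for a cell type. Transcripts were counted by their 3′ ends in droplets, with a unique molecular identifier (UMI) for each captured molecule, and no scaling by transcript length was applied.

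The epithelium of the small intestine is renewed from stem cells at the crypt base. Their daughters, the transit amplifying cells, divide in the crypt, leave the cell cycle and move up the villus as enterocytes, goblet cells or enteroendocrine cells. In the cycle, the Mcm2 to Mcm7 proteins form the replicative helicase, which is loaded on origins in G1 and unwinds DNA in S phase, while products of genes such as Cdk1, Ccnb1 and Plk1 drive entry into mitosis and passage through it. Transcripts of the first kind are known to peak from late G1 into S phase and those of the second in G2 and mitosis.

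The libraries were kept apart by the number, 1 to 4, that ends each barcode. The labels and headers used here tied no number to a labelled sample, so no library was given a diet and no diet comparison was made. Each library is shown by its own value, and differences between libraries mix diet, mice and preparation. Of 44277 barcodes, 25788 had at least 500 UMIs, at least 250 genes and at most 25% mitochondrial UMIs. They held 6174 to 7122 cells and 143965013 to 190876926 UMIs per library, and the 33 genes took 0.0446% to 0.0932% of these UMIs. Of the kept barcodes, 150 (0.582%) had a sequence that also occurred in another library. Cells were gated by markers of cell types, none of which is a cell cycle gene, in UMIs per 10000 UMIs of the cell. The crypt gate (at least 10 of the crypt markers such as Lgr5, Olfm4 and Slc12a2, and under 200 of the enterocyte markers) held 419, 1072, 569 and 367 cells in libraries 1 to 4. The goblet gate held 182 to 323 cells per library and the enterocyte gate (at least 800 of markers such as Apoa4, Fabp1 and Alpi) 2997 to 4884. The immune gate held 415 cells in library 1 and 1466 in library 3, against 7 and 13 in libraries 2 and 4, which were not used for it. Levels below are counts per 1e6 UMIs of all cells of a gate (CPM). In the crypt gate, the stem cell gene Olfm4 stood at 1180 to 2195 CPM and Lgr5 at 12.4 to 32.6 CPM, while the immune markers summed to 3.995 to 53.0 CPM and Col1a1, of stroma, was at 0. A gene is called higher where the ratio of CPM plus 1 is at least 2 in every library with both gates. There is no test and no p-value, and intervals given are exact 95% intervals that cover counting error only.

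The sequences around the transcription starts, shown before the counts, hold different motifs in the replication and the mitosis genes. Windows from 250 bases before to 50 bases after the start, from RefSeq on GRCm38.p6, were matched to 29 of the 33 genes, and both strands were searched for motifs chosen from textbook knowledge after the counts had been seen. The cell cycle homology region (CHR), searched as TTTGAA, is a core promoter element of genes active in G2 and mitosis. It was found in 12 of 16 mitosis genes, in 1 of 12 replication genes (Mcm2) and in 17.9% of all 32851 windows. In 5 of these mitosis genes (Aurka, Cdca3, Cdca8, Cenpf and Plk1) the CHR lay after the start alone, and in 7 at least 1 CHR lay before it. The E2F motif, searched as TTTCCCGC, TTTCGCGC, TTTGCCGC or TTTGGCGC, is bound by factors that act at the entry to S phase. It was found in 6 of 12 replication genes (Hells, Mcm3, Mcm5, Mcm6, Mcm7 and Pclaf), in 1 of 16 mitosis genes (Cdk1) and in 2.26% of all windows, and both matches of Mcm3 lay after the start. The CCAAT box, which NF-Y binds, was found in 14 of 16 mitosis genes, 9 of 12 replication genes and 37.4% of all windows. A match is a description of letters and not a site of binding. The 120 bases before the start are printed 5′ to 3′ on the strand of the gene for 7 of the genes, of which all but Cdc20 have levels given below. Motifs are in capitals, and ATTGG and TTCAAA are the CCAAT box and CHR on the opposite strand.
Ube2c: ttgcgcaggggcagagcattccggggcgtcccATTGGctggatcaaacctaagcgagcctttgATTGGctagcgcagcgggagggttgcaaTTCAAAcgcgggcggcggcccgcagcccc
Top2a: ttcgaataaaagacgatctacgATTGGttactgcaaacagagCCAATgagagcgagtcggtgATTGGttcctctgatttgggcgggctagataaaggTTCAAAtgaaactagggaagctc
Cdk1: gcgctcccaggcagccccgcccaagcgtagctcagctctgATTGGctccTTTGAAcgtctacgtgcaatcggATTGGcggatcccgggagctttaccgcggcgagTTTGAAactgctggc
Cdc20: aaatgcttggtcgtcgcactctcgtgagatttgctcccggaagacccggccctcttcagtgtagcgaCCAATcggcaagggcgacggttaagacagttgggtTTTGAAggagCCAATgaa
Mcm6: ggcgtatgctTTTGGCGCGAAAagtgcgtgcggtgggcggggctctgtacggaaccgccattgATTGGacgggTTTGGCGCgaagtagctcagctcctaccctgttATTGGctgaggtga
Hells: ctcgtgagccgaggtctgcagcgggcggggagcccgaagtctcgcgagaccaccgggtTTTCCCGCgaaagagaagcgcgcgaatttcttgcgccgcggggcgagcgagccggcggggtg
Mcm2: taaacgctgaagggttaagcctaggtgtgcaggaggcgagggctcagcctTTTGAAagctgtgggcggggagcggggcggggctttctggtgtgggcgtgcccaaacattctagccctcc

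In these windows, Ube2c at chr2:164769809-164769928 (plus strand) and Top2a at chr11:99024190-99024309 (minus strand) carry 2 and 3 CCAAT boxes with a CHR between them and the start. Cdk1 at chr10:69352913-69353032 (minus strand) has 2 CCAAT boxes, each followed by a CHR, and in Cdc20 at chr4:118437344-118437463 (minus strand) the CHR lies at -18 to -13 from the start, between 2 CCAAT boxes. Mcm6 at chr1:128359706-128359825 (minus strand) holds 2 E2F matches on its own strand, the first of which overlaps another on the opposite strand, and 2 CCAAT boxes. Hells at chr19:38930870-38930989 (plus strand) holds 1 E2F match and no CCAAT box. Mcm2 at chr6:88898781-88898900 (minus strand) has a CHR and no E2F match, and its CCAAT box lies further upstream.

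Each of the 33 genes was called higher in crypt-gated than in enterocyte-gated cells. Of all 9758 genes that reached a mean of 5 CPM in either gate, 3225 (33%) were called higher. The median log2 ratio was 5.35 over the 33 genes and 0.56 over all genes counted, with 5.91 for mitosis genes and 4.77 for replication genes. Fewer cycling cells and less RNA per cycling cell cannot be told apart in such sums.

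**Figure D1:**
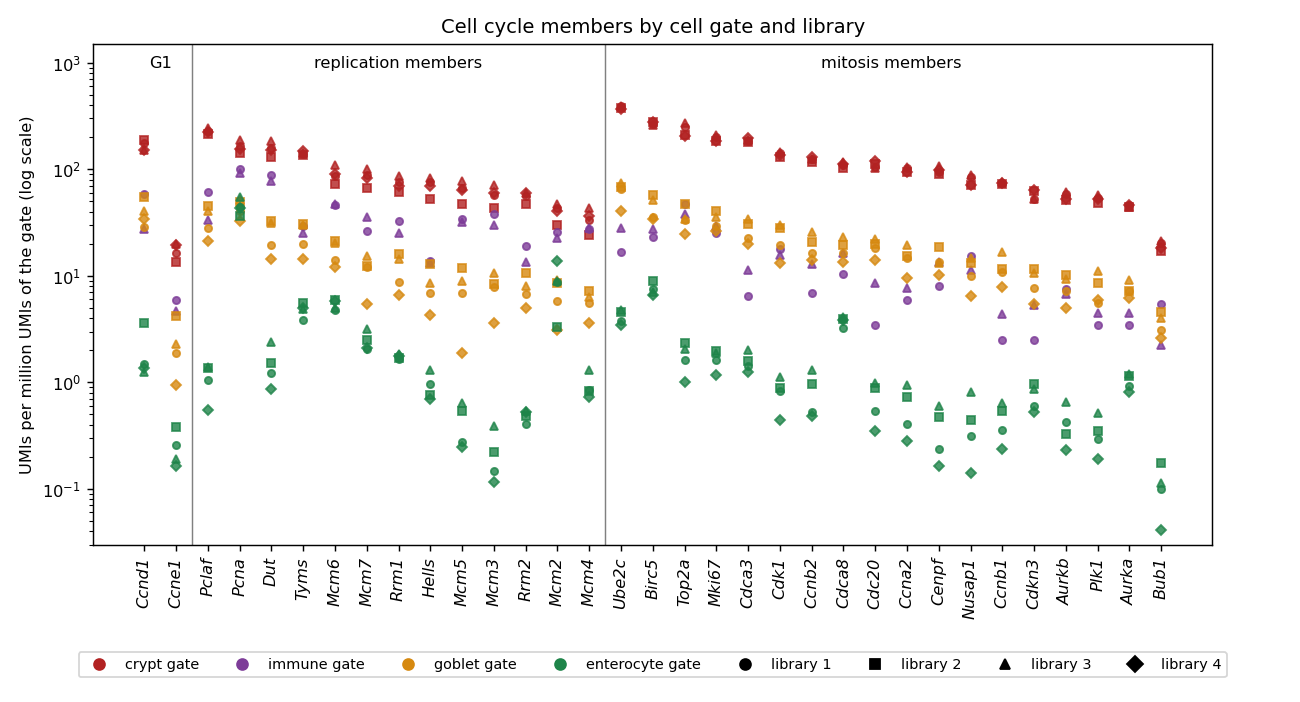
Level of each of the 33 genes (CPM of the gate, log scale) in the crypt, immune, goblet and enterocyte gates, with 1 point per library. The red crypt points lie above the green enterocyte points for every gene, with median log2 gaps of 1.84 for Pcna and 2.22 for Mcm2; purple immune points lie a median of 1.10 below the crypt for replication genes and 3.27 for mitosis genes.

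Among mitosis genes, Ube2c, the ubiquitin-conjugating enzyme of the anaphase-promoting complex, stood at 392, 377, 393 and 370.2 CPM in the crypt gates of libraries 1 to 4. In the enterocyte gates it stood at 3.76, 4.60, 4.81 and 3.42 CPM, so that the gates were far apart in every library (median log2 ratio 6.22). Birc5 (survivin, of the chromosomal passenger complex) stood at 266, 279, 262 and 277 CPM in the crypt gates and at 6.60 to 8.87 CPM in the enterocyte gates. Top2a, the topoisomerase that untangles sister chromatids, reached 250.2, 211, 271 and 207 CPM against 0.998 to 2.32 CPM, and Mki67, the proliferation marker Ki-67, 202, 185, 211 and 184 CPM against 1.18 to 1.95 CPM. The mitotic kinase genes were lower in level and also clear of the enterocytes. Cdk1 ranged from 130.3 to 144 CPM over the crypt gates, Aurka from 43.8 to 46.1 CPM, Aurkb from 51.6 to 61.7 CPM and Plk1 from 48.5 to 56.9 CPM. Bub1, a kinase of the spindle checkpoint, was the least abundant mitosis gene, at 20.5, 17.3, 21.2 and 18.3 CPM against 0.101, 0.175, 0.114 and 0.0412 CPM. The remaining 9 mitosis genes lay between 52.4 and 197 CPM in the crypt gates.

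Among replication genes, Pclaf, a partner of PCNA at the replication fork, stood at 230.3, 216, 244 and 223 CPM in the crypt gates against 0.553 to 1.41 CPM in the enterocyte gates. Its median log2 ratio, 6.74, was the highest of the 33. Dut, the enzyme that removes dUTP, stood at 158, 130.5, 183 and 151 CPM in the crypt gates, and Tyms, which makes dTMP, at 140.4, 135, 144 and 147 CPM. The Mcm genes ranged from 24.4 CPM (Mcm4, library 2) to 109 CPM (Mcm6, library 3). Rrm1 and Rrm2, the subunits of ribonucleotide reductase, reached 61.0 to 86.2 and 47.5 to 60.4 CPM, and Hells, a chromatin remodeller, 52.5 to 82.4 CPM. In the enterocytes, the replication genes other than Pcna, Mcm2, Mcm6 and Tyms stayed at 0.115 to 3.20 CPM.

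Pcna, the sliding clamp of DNA polymerases, stood at 166, 141, 186 and 156 CPM in the crypt gates and still at 44.5, 36.6, 55.0 and 43.6 CPM in the enterocyte gates. Its log2 ratio of 1.84 was the lowest of the 33, and the gates did not overlap. PCNA also serves in DNA repair. Mcm2 had the next lowest ratio, 2.22, with 43.2, 29.9, 46.8 and 40.6 CPM in the crypt gates and 8.75, 3.34, 9.03 and 13.7 CPM in the enterocyte gates. These 2 genes were the ones that a call at 4-fold no longer held. Mcm6 came next, with 72.6 to 109 CPM against 4.80 to 5.98 CPM, a median log2 ratio of 3.84.

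Of the G1 cyclins, Ccnd1 (cyclin D1, a Wnt target that starts the cycle with Cdk4 and Cdk6) stood at 177, 186, 151 and 153 CPM in the crypt gates against 1.26 to 3.64 CPM in the enterocyte gates. Ccne1 (cyclin E1, the partner of Cdk2 at the entry to S phase) stood at 16.5, 13.6, 20.0 and 19.3 CPM against 0.165 to 0.377 CPM. Both were clear of the enterocytes in all libraries, Ccnd1 by a median log2 ratio of 6.05.

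Further genes of the cycle were taken as lists by their known roles. Of 28 measured licensing and replication factors, 27 were called higher in the crypt gate and none lower. Uhrf1, which keeps DNA methylation through replication (median log2 ratio 5.32), and Prim1, a primase subunit (5.25), were the furthest apart, and Gmnn, the licensing inhibitor geminin, had 1.81. All 43 kinetochore, spindle and cytokinesis genes were called higher, with median log2 ratios from 2.22 to 5.51. Bub3 of the spindle checkpoint (2.22) and the phosphatase Cdc25b (2.57) were the lowest, and Racgap1, of cytokinesis (5.49), and Hmmr, of the spindle (5.45), among the highest. Of 22 regulators, 16 were called higher and none lower. Cyclin D2 (Ccnd2) was the furthest apart, at 387 CPM in the crypt gate against 14.6 CPM in the enterocyte gate (medians of the libraries), and Foxm1, a factor of G2 genes, stood at 15.4 against 0.128 CPM. The regulators not called were Rb1 (18.9 against 35.1 CPM), E2f3 (16.1 against 15.7 CPM), Lin54, Rbl1, Rbl2 and Cdc25a.

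The inhibitors of cyclin-dependent kinases and genes of arrest went both ways. Of 12 measured, 3 were called higher in the crypt gate, no larger a share than the 33% of all genes, and 3 lower, against 11.6% of all genes. The 3 higher were Cdkn2c (p18, 19.2 against 2.48 CPM), Cdkn2d (p19, 15.2 against 3.77 CPM) and Cdkn1b (p27, 33.1 against 14.8 CPM). The 3 lower were Ccng2 (8.90 against 86.6 CPM), Klf4 (24.5 against 213 CPM) and Cdkn1a (p21, 57.4 against 239 CPM). Klf4 is also among the villus tip markers. Cdkn2b (p15, 42.2 against 101 CPM) had ratios below 1 in every library without reaching the 2-fold call in all of them. The others not called were Gadd45a (46.0 against 111 CPM), Btg1 (92.1 against 117 CPM), Cdkn1c (p57, 1.92 against 5.79 CPM), Btg2 (287 against 253 CPM) and Ccng1 (31.0 against 22.5 CPM).

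Between libraries, replication genes in the crypt gate varied more than mitosis genes. None of the 33 genes differed 2-fold between the highest and the lowest library, against 1.78% of all genes. A 1.5-fold difference, on CPM plus 1, was reached by 6 of them, against 8.89% of all genes, and the 6 were replication genes: Mcm2, Mcm3, Mcm4, Mcm5, Mcm6 and Hells. Mcm4, a helicase subunit, had the widest range, at 33.5, 24.4, 43.6 and 36.2 CPM. The narrowest range was that of Ccnb1 (cyclin B1), at 73.8, 73.2, 75.2 and 73.8 CPM. Library 2 was the lowest for all 13 replication genes and library 3 the highest for 11 of them. These were also the commonest extremes over all genes, of which 36.9% were lowest in library 2 and 38.6% highest in library 3. The median ratio of highest to lowest library, on CPM, was 1.51 for replication genes and 1.14 for mitosis genes. For all genes it was 1.20 on CPM plus 1, a measure that the added 1 draws nearer to 1. With library 2 left out, or library 3, none of the 33 genes reached 1.5-fold, and the share of all genes was 4.56% and 4.42%. Without library 1 or library 4 the count stayed at 6.

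The mix of crypt cells also differed between libraries. Cells with 100 to 200 enterocyte marker UMIs made up 28.6% of the crypt gate in library 2 and 18.8% in library 3, against 22.2% and 32.7% in libraries 1 and 4. Stem cell markers summed to 2167, 1381, 2611 and 1490 CPM in the crypt gates of libraries 1 to 4. Among cells under 50 enterocyte marker UMIs, the replication sum was 1232, 1373, 1314 and 1290 CPM, so library 2 was there the highest and not the lowest. The part of this mix in the spread was not tested further.

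Along the path from crypt to villus, replication genes had fallen further than mitosis genes by 100 to 200 enterocyte marker UMIs, but not at each earlier step. Cells outside the immune and secretory gates were ordered by their enterocyte marker UMIs per 10000, in 7 bins whose limits were set after the marker counts, but not the cell cycle genes, had been viewed. From under 50 to 100 to 200, the summed replication genes went to 57.5%, 33.8%, 86.6% and 51.2% of their first level in libraries 1 to 4. The summed mitosis genes went to 71.4%, 69.5%, 96.6% and 99.2%. By this bin the replication sum had thus lost more than the mitosis sum in each of the 4 libraries. At 50 to 100 the replication sums were at 109.6%, 64.9%, 105.1% and 113.05%, and the mitosis sums at 99.8%, 95.2%, 87.9% and 102.6%. In that bin replication was the lower only in library 2. The bins do not match between libraries in stem cell content, since stem markers in the 50 to 100 bin stood at 936, 228, 1911 and 1231 CPM. At 200 to 400 the replication sums were at 16.4% to 36.8% and the mitosis sums at 27.5% to 45.1%. Replication was lower in each library, as at 100 to 200.

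**Figure D2:**
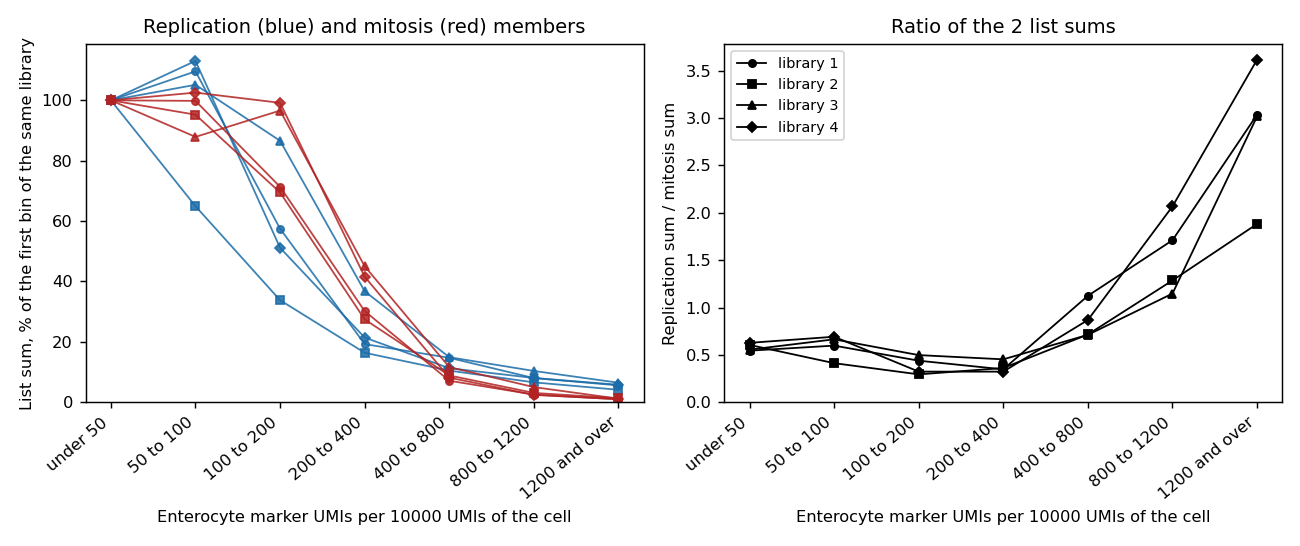
Left, sum of the 13 replication genes (blue) and of the 18 mitosis genes (red) in each bin of enterocyte marker UMIs, as % of the first bin of the same library. Right, ratio of the replication sum to the mitosis sum; each line is a library. Blue lies below red at 100 to 200 and at 200 to 400 in each library, and the ratio is lowest in 1 of these 2 bins in each library and rises to between 1.88 and 3.62 in the last bin.

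The ratio of the replication sum to the mitosis sum was accordingly not steady along the path. It was 0.545 to 0.628 in the first bin, 0.413 to 0.692 at 50 to 100, 0.323 to 0.453 at 200 to 400 and 1.88 to 3.62 at 1200 and over. The last bins hold little of either list: at 1200 and over the mitosis sum stood at 20.7 to 30.1 CPM, and the replication sum at 56.7 to 85.1 CPM, of which Pcna is the largest part. Over all bins and libraries the immune markers summed to 3.39 to 111 CPM and the goblet markers to 228 to 1493 CPM, and their part in the ratios was not tested.

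Gene by gene, the Mcm genes, Hells, Dut and Ccnd1 had under 50% of their early level left at 100 to 200, against 7.95% of all genes counted. Taking the median of the 4 libraries, the 6 Mcm genes had 32.8% to 46.3% of their level at under 50. All 6 were under 50% in libraries 2 and 4, while in library 3 they had 59.3% to 76.9%. Mcm2 went from 46.0, 41.7, 46.6 and 49.9 CPM to 16.7, 10.7, 27.6 and 14.7 CPM, and Hells from 75.4, 76.9, 75.6 and 77.0 CPM to 33.5, 13.9, 54.1 and 23.6 CPM. The early levels of these 2 genes were close between libraries and the late ones were not. Hells (37.6%), Dut (42.3%) and the G1 cyclin Ccnd1 (45.8%) lay within the range of the Mcm genes. Rrm1 had 52.8%, and Pcna, Tyms and Pclaf had 67.3% to 71.9%. Rrm2 stood apart from the other replication genes at 112%, going from 37.1, 49.8, 38.4 and 39.0 CPM to 48.2, 30.4, 68.9 and 36.8 CPM.

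The 18 mitosis genes had a median of 84.9% and a range from 61.9% to 100.1%, and none was under 50%, where so low a share is rare among all genes too. Birc5 went from 232, 269, 240 and 226 CPM to 193, 206, 276 and 264 CPM, lower in 2 libraries and higher in 2. Cdca3, a trigger of mitotic entry, had 97.7% and Cdkn3, a phosphatase of Cdk1 and Cdk2, 96.2%. Cenpf, a kinetochore protein, had the lowest share of the mitosis genes, going from 99.5, 97.3, 119 and 115 CPM to 62.0, 59.7, 75.8 and 67.8 CPM. Top2a (65.7%) and Aurkb (71.6%) came next. The companion lists of replication and of mitosis lay likewise: 13 of 29 licensing and replication factors and none of 43 kinetochore, spindle and cytokinesis genes were under 50%. Of all genes counted, 7.95% were, and their median was 92.1%. In the other lists, 5 of 22 regulators and 1 of 12 inhibitors and genes of arrest were under 50%. Regulators ranged from 18.8% (Cdk6) to 170% (Rb1), and inhibitors and genes of arrest from 31.0% (Cdkn1c) to 531% (Cdkn2b).

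**Figure D3:**
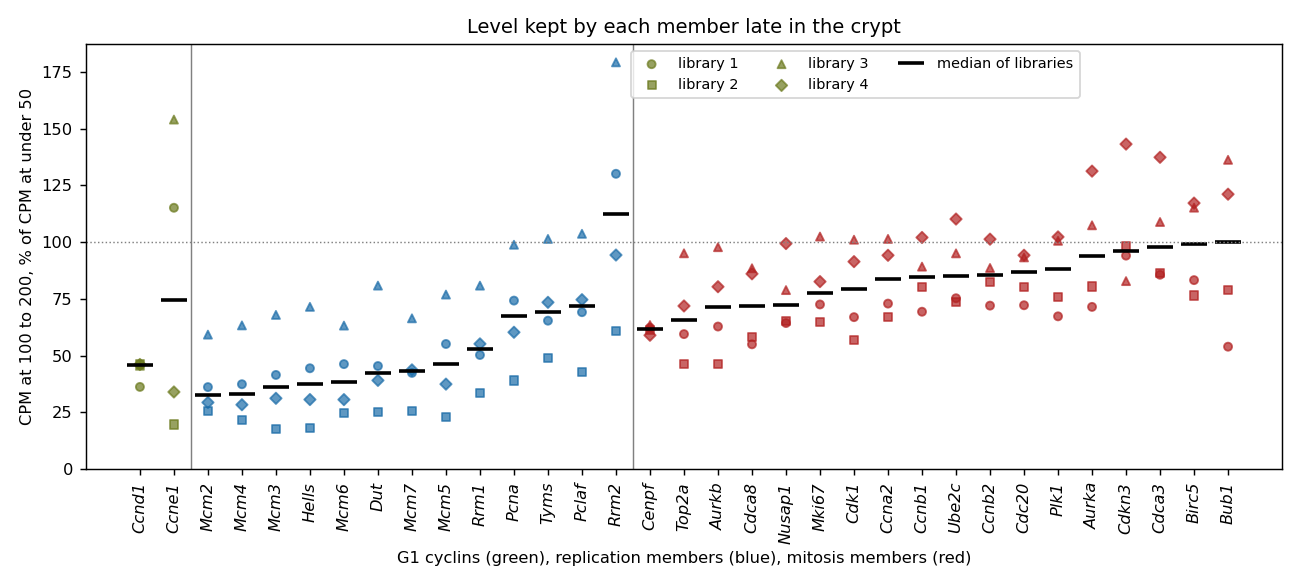
CPM of each gene in cells with 100 to 200 enterocyte marker UMIs as % of its CPM in cells under 50, with 1 point per library and a bar for the median of the libraries. The Mcm genes lie at the left of the replication genes with medians of 32.8% to 46.3%, mitosis genes between 61.9% and 100.1%, and Rrm2 at 112%.

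A 2-fold fall in every library was reached by 1 of the 33 genes, Ccnd1, against 2.73% of all genes. Ccnd1 went from 227, 240, 202 and 206 CPM to 82.4, 110.5, 92.3 and 95.2 CPM, so the early and late bins did not overlap. In library 3 no replication gene was lower by 2-fold, which keeps all 13 from the call. Ccne1 went either way, at 19.7% to 154% of its early level.

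Within the crypt gate, cells with stem cell markers had more replication relative to mitosis transcripts than cells with few of them. This split is not separate from the ordering by enterocyte markers. Along that ordering, stem markers fell from 3507 CPM at under 50 to 1084 CPM at 50 to 100 and 156 CPM at 100 to 200 (medians of the libraries). The ratio of the sums was 0.447, 0.369, 0.472 and 0.440 in cells under 5 stem marker UMIs per 10000 and 0.594, 0.763, 0.660 and 0.795 in cells with at least 20. These 2 sets of cells did not overlap in this ratio. There was no steady gradient, since cells with 5 to 20 had 0.702, 0.651, 0.713 and 0.576, above the cells with at least 20 in libraries 1 and 3 and below them in libraries 2 and 4. Mcm2 stood at 28.8, 19.6, 35.0 and 27.5 CPM in the former and at 54.5, 54.3, 54.3 and 64.3 CPM in the latter. Rrm2 had the opposite order in each library, at 68.2, 46.5, 75.05 and 64.3 CPM against 38.1, 39.7, 43.1 and 49.9 CPM. The mitosis sum was 2353, 2291, 2694 and 2421 CPM in cells with few stem markers and 2366, 1916, 2183 and 1947 CPM in cells with many, the lower value in 3 of 4 libraries. Cdkn1a (p21) stood at 73.7 to 105 CPM in the former and at 16.6 to 41.2 CPM in the latter.

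To compare cells of unequal depth, each cell was thinned to 2000 UMIs and scored for at least 2 UMIs of a list. In the crypt gate, 54.3% (49.4% to 59.2%), 48.1% (45.04% to 51.3%), 60.1% (56.0% to 64.2%) and 58.0% (52.7% to 63.1%) of cells had the replication list in libraries 1 to 4. The mitosis list was found in 57.7%, 55.3%, 61.2% and 62.1%. In enterocyte-gated cells the shares were 0.853% to 1.45% and 0.124% to 0.376%. Median depths were 26108 to 29917 UMIs there and 25315 to 35267 in the crypt gate. Unthinned, 90.7% to 98.6% of crypt-gated and 44.8% to 57.4% of enterocyte-gated cells had at least 2 replication UMIs. Enterocyte-gated cells are not an empty background for this list, since Pcna alone was found in 57.8% to 67.9% of them unthinned. Thinning left out 2 to 48 crypt-gated cells per library.

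Cells with both lists were the largest class of the crypt gate, at 35.1%, 33.7%, 39.3% and 37.4%. Cells with replication alone made up 19.2%, 14.45%, 20.8% and 20.6%, with mitosis alone 21.6% to 24.7% and with neither 17.3% to 30.3%. The median depth before thinning was 29857 to 40441 UMIs in cells with both and 22732 to 27959 UMIs in cells with neither. The classes therefore differ in RNA content as well as in the lists.

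**Figure D4:**
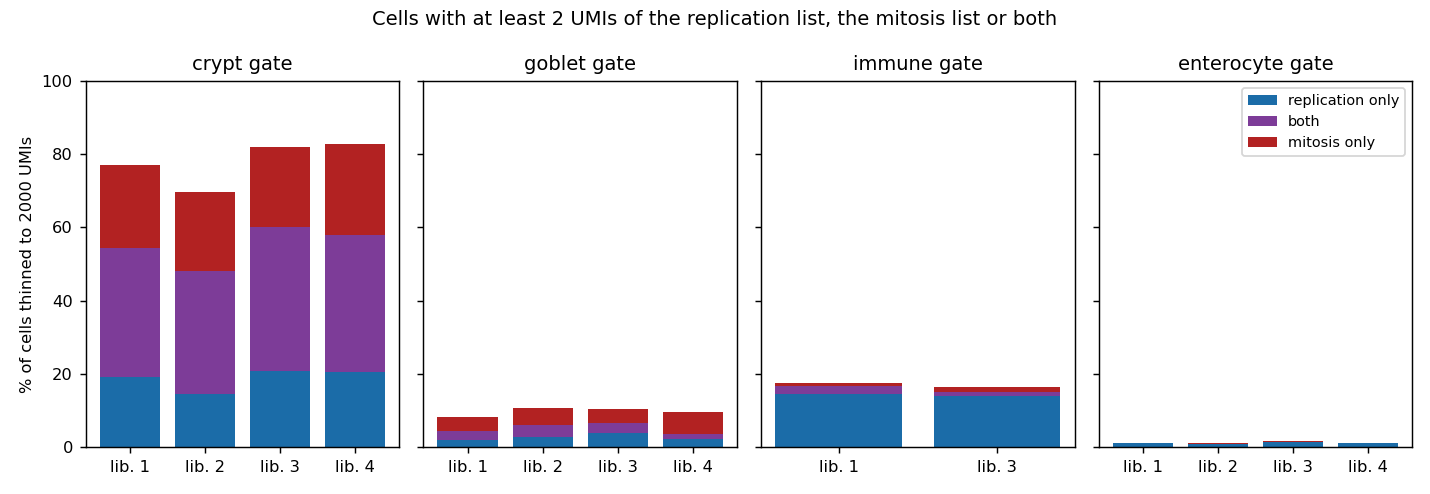
Share of cells, thinned to 2000 UMIs, with at least 2 UMIs of the replication list alone, of both lists or of the mitosis list alone, by gate and library. Cells with neither list, not drawn, make up 17.3% to 30.3% in the crypt gate and 82.6% to 98.8% in the other gates. The immune cells that have a list mostly have replication alone (14.47% of 380 and 14.02% of 1377 thinned immune-gated cells).

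In the same cells, the odds of detecting a gene together with another were higher for members of 1 list than for members of different lists. The median log2 odds ratio of detecting 2 genes in a thinned crypt-gated cell was 1.34 to 1.58 over the 153 pairs of mitosis genes and 0.86 to 1.08 over the 78 pairs of replication genes. Over the 234 pairs between lists it was 0.03, 0.23, -0.04 and -0.08. Nusap1, a microtubule bundler, and Ube2c had the highest log2 odds ratio (median 2.93), and Mcm4 and Cdkn3 the lowest (-1.65). After thinning, Mcm4 was found in 4.95% to 8.64% of crypt-gated cells and Cdkn3 in 7.21% to 9.88%. The lowest value thus rests on few cells with both genes, and the 0.5 added to each count of an odds ratio weighs in it. Pclaf went with both lists, at a median of 1.02 with replication and 1.05 with mitosis genes. Rrm1 (0.69 and 0.64) and Rrm2 (1.12 and 0.67) were also positive with both, whereas Mcm4 had 0.62 with replication and -0.80 with mitosis genes, and Mcm2 0.69 and -0.53. The odds ratios come from cells that share a library and a depth, and are a description with no test. Medians over all pairs of a kind were 7 to 37 cells with both genes, and single pairs can have fewer. Mcm2, like Mcm4, was found in a small share of the thinned cells (6.59% to 9.35%).

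Goblet-gated cells held all 33 genes at a lower level than crypt-gated cells. Each of the 33 genes was called higher in the crypt gate, against 18.9% of all genes, with a median log2 ratio of 2.63. The ratio of the sums was 0.544, 0.616, 0.579 and 0.495 in the goblet gates and 0.541, 0.476, 0.592 and 0.543 in the crypt gates, with overlapping values. Within the gate, levels were highest in cells with few goblet markers. With 200 to 800 goblet marker UMIs, the 27, 58 and 35 cells of libraries 1 to 3 had mitosis sums of 1711, 1267 and 1279 CPM. With 1600 and over, the mitosis sum was 18.8, 51.1, 57.9 and 42.5 CPM in libraries 1 to 4. The median depth was 31114 to 44362 UMIs in the former and 21466 to 25910 in the latter. Cdk1 stood at 96.4, 84.8 and 80.5 CPM in the former cells and at 1.43 to 5.18 CPM in the latter. Muc2, the main secreted mucin, was at 1913 to 2268 CPM and 15922 to 19717 CPM in the same cells, and whether some of the former are droplets of 2 cells was not tested.

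Enteroendocrine-gated cells, the hormone-secreting lineage, were few, at 52, 37, 115 and 43 cells in libraries 1 to 4. Of the 33 genes, 19 were called higher in the crypt gate than in them, against 3.07% of all genes. The 19 were 16 of 18 mitosis genes, 2 of 13 replication genes (Pclaf and Rrm2) and Ccnd1. Library 2 set this count, which was 31 without it, a setting for which the share of all genes was not computed. The enteroendocrine gate of library 2 held 2226 CPM of crypt markers against 802 to 1346 CPM in the other libraries. The part of crypt RNA in these values was not tested. The median log2 ratio over the 33 genes was 2.75. The mitosis sums of the gate, 787, 633, 143 and 64.3 CPM, were further apart than the replication sums, 286, 651, 228 and 187 CPM. After thinning, at least 2 mitosis UMIs were found in 3 of 51, 4 of 35, 2 of 110 and 0 of 41 cells. The spread of the mitosis sums between libraries can therefore turn on few cells.

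In immune-gated cells replication genes were nearer to their crypt level than mitosis genes. Of the 33 genes, 26 were called higher in the crypt gate than in the immune gate, against 18.6% of all genes, in the 2 libraries with enough immune cells. The 26 were all 18 mitosis genes, both G1 cyclins and 6 of 13 replication genes. The 7 replication genes not called were Mcm2, Mcm3, Mcm4, Mcm5, Mcm6, Pcna and Dut. Mcm4 stood at 27.3 and 27.9 CPM in the immune gates of libraries 1 and 3 against 33.5 and 43.6 CPM in the crypt gates, a median log2 ratio of 0.46. Dut stood at 87.5 and 77.7 CPM against 158 and 183 CPM. Cdca3 was at the other end, at 6.46 and 11.3 CPM against 184 and 189 CPM (log2 ratio 4.29), and Ccnb1 stood at 2.48 and 4.37 CPM against 73.8 and 75.2 CPM.

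The ratio of the replication sum to the mitosis sum was 2.56 and 1.93 in the immune gates and 0.541 and 0.592 in the crypt gates of the same libraries. Mcm transcripts were 24.2% and 25.9% of the UMIs of the 33 genes in immune-gated cells and 8.12% to 11.2% in crypt-gated cells. Against enterocytes, 27 of the 28 measured genes were called higher in the immune gate, where 44.6% of all genes were called higher, and Pcna was the exception at 99.9 and 92.8 CPM against 44.5 and 55.0 CPM. Thinned, 16.6% and 14.9% of immune-gated cells had at least 2 replication UMIs and 2.89% and 2.40% at least 2 mitosis UMIs. The mitosis UMIs lay in few cells: among T cells of library 1, 5 cells held 45 of 84 UMIs after thinning, and in library 3, 5 cells held 85 of 302. Replication UMIs were spread more widely, with 68 of 290 and 70 of 955 in the top 5 cells. T cells, marked by Cd3e and the T cell receptor genes, made up 337 and 1269 cells of the gate, with ratios of the sums of 2.32 and 2.17, and B cells had 6.00 in 27 cells and 1.91 in 121 cells. The other immune cells, neither T nor B cells, differed between the libraries, at 4.65 in 49 cells of library 1 and 0.822 in 72 cells of library 3, where mitosis exceeded replication. After thinning, 5 of these cells of library 3 held 31 of their 40 mitosis UMIs, and the B cells of library 1 held 2 in all.

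Immune-gated cells had a median of 3769 and 3814 UMIs, and enterocyte markers took 6258 and 10828 CPM of them and crypt markers 250 and 253 CPM, against 4498 and 4525 CPM of crypt markers in the crypt gates. The part of RNA from epithelial cells in the immune values was not tested beyond these levels. With the 6% highest doublet scores removed, the count called against immune cells was 30, with no share of all genes computed. The immune over crypt difference in the log2 ratio of the sums was then 2.54 in place of 1.97.

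Mcm2 differed from the other genes within the enterocytes. Enterocyte-gated cells were divided by the UMIs per 10000 of villus tip markers (Ada, Apoa4, Nt5e, Slc28a2, Creb3l3, Klf4, Fos and Junb), of which Apoa4 gives most counts. In library 1, Mcm2 stood at 0.691, 1.31, 8.54, 18.9 and 15.2 CPM from the lowest to the highest bin. Library 2 had 0.506, 1.17, 5.63, 16.3 and 15.7 CPM and library 3 had 1.11, 1.80, 6.83, 17.9 and 14.4 CPM. Library 4 had the highest late values, 1.03, 1.80, 11.7, 31.0 and 22.0 CPM. In every library the 2 top bins were clear of the 2 lowest, and the median log2 ratio of cells over 200 to cells under 100 was 3.09. Counting intervals were narrow beside this difference: 17.0 to 20.9 CPM at 200 to 400 and 0.224 to 1.61 CPM at under 50 in library 1.

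**Figure D5:**
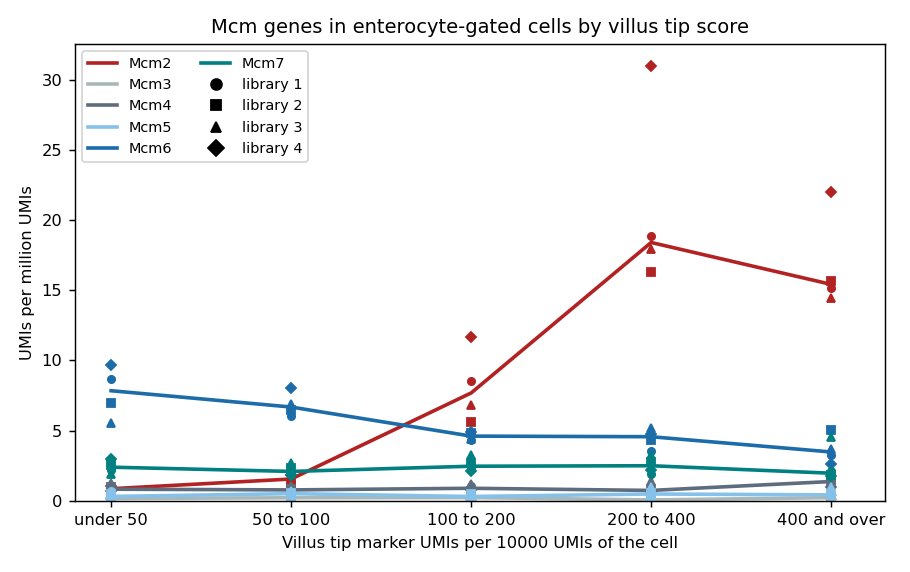
Level of the 6 Mcm genes (CPM) in enterocyte-gated cells by villus tip marker UMIs per 10000; points are libraries and lines join their medians. Mcm2 (red) rises from 0.506 to 1.11 CPM in the first bin to 16.3 to 31.0 CPM at 200 to 400, while the other 5 Mcm genes show no such rise.

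Mcm2 was the 1 gene of the 33 called higher at a high tip score, against 5.01% of all genes, and Tyms the 1 called lower, against 7.17%. Of the 33, 5 reached 5 CPM in either set of cells, the other 3 being Pcna, Birc5 and Mcm6, which were not called. Mcm3, Mcm4, Mcm5 and Mcm7 stayed at 0 to 4.52 CPM in all bins. Mcm6 went from 5.57 to 9.71 CPM in the lowest bin to 2.64 to 5.07 CPM in the highest, and Pcna stayed between 33.2 and 65.1 CPM throughout. Tyms went from 7.44 to 8.91 CPM to 0.964 to 2.80 CPM.

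The rise of Mcm2 was also seen as cells with a UMI. It was found in 15.9%, 13.7%, 20.4% and 30.6% of cells over 200 and in 3.62%, 2.69%, 4.33% and 3.94% of cells under 100, although the former had fewer UMIs (medians of 11127 to 20619 against 29376 to 37802). In the crypt gates, 57.8%, 39.9%, 68.5% and 55.6% of cells held Mcm2. Of all enterocyte-gated cells with Mcm2, 366 of 580, 176 of 251, 319 of 470 and 557 of 953 in libraries 1 to 4 had a single UMI. The gene lies at chr6:88883474-88898780 on the minus strand (GRCm38, GENCODE M21), between Podxl2 and Tpra1, and neither overlaps it. Other genes over or next to it were not searched for. The assay counts 3′ ends, so it does not show which promoter or isoform the tip transcripts come from. Mcm6 lies at chr1:128331590-128359664 on the minus strand. The lactase gene Lct, an enterocyte marker, lies downstream of it at chr1:128284756-128328318 on the same strand, and genes between them were not searched for.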

How the data were processed

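The 4 samples were measured as single cells. Their deposited values are UMI counts: whole numbers for every pair of a gene and a barcode, without normalization, per the file headers. Per the submitters' processing notes, Cell Ranger 6.1.1 and mm10 were used, and how the deposited barcodes were filtered is not analysed here. The members and gene lists were chosen with earlier results of these data known, and limits of gates, bins and splits and the motifs were set after the data had been seen.

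Kept barcodes had at least 500 UMIs and 250 genes, with mitochondrial UMIs at 25% or less. UMIs were summed by gate and library and scaled to CPM (exact Poisson limits); shares carry Clopper-Pearson limits, all at 95%. Goblet cells had at least 200 and immune cells at least 40 marker UMIs per 10000, and a gate needed 20 cells in a library. Cells between the crypt and enterocyte limits entered only the ordering by enterocyte markers. Paneth and tuft gates were left out, since each fell under 20 cells in at least 2 libraries. Calls covered genes at a mean of at least 5 CPM. The values of 1 licensing and replication factor are not reported here. No p-value was computed, because no library could be tied to a diet.

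Doublets were not called in the main values; Scrublet in scanpy 1.11.5 served 1 alternative. Named genes followed a rule (the 4 most abundant of the replication and of the mitosis genes, both G1 cyclins, the extremes between gates and between libraries); other named genes were chosen after their values were seen. The call was tested on simulated counts. Python 3.11.15 with numpy 2.4.6, scipy 1.17.1 and pandas 2.3.3 was used.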

Additional observations from a re-analysis of the deposited data

How the results depend on the processing

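Over the alternatives tried, 135 values that answer a comparison moved by less than the spread between libraries, or by less than 1.5 times for a count, and 23 moved more. Stricter gates gave a log2 ratio of replication to mitosis of -0.71 in place of -0.88 in crypt-gated cells, a replication share of 67.4% in place of 56.1%, and log2 odds ratios of 0.58 within replication (0.96 in the main values) and -0.26 between lists (-0.01). The median over members gave a log2 ratio of -0.51, and at most 15% mitochondrial UMIs an odds ratio of 0.82 within replication. Without the 6% highest doublet scores, which for this value was added after seeing the data, the immune over crypt difference was 2.54. Thinning to 5000 UMIs gave shares of 81.7% for replication and 74.5% for mitosis (59.4% in the main values) and odds ratios of 1.17 within replication and 2.10 within mitosis (1.40). No thinning gave 97.2% and 92.9%, at least 1 UMI 75.4% and 72.4%, and at least 3 UMIs 38.7% and 49.8%. A limit of 1.5-fold between libraries gave 6 members in place of 0, and 0 to 6 with a library left out, a setting added after seeing the data. At 4-fold, Mcm2 (2.22) and Pcna (1.84) were no longer called against enterocytes, and 22 members were called against goblet, 19 against immune and 1 against enteroendocrine cells. For counts between gates, the share of all genes was computed in the main values alone. Such counts under an alternative therefore have no background to be read against. Stricter gates gave 30 in place of 19 against enteroendocrine cells, a count whose alternatives were all added after seeing the data. No called value changed its direction.

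With each library left out in turn, the counts stayed at 33 against enterocytes and goblet cells and ranged from 26 to 31 against immune cells and from 19 to 31 against enteroendocrine cells. Shares of all genes were not computed for these either. No paired analysis was possible because the barcode numbers carry no replicate number of the labels. Shares at a fixed depth cannot be read as shares of cycling cells, and immune values rest on 2 libraries at medians of 3769 and 3814 UMIs per cell.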
